A study of Mus musculus with 12 samples.

Results

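Deferoxamine was added to ferric citrate in 3 of the 12 small RNA libraries of this study (DFO), and these were compared with the 3 libraries of ferric citrate alone (FAC), across all 637 miRNA entries of the deposited counts. The 6 libraries were chosen by their treatment labels and by nothing measured in them. Each library was made from exosomes released by granulosa cells, which were collected from the ovaries of Kunming mice after gonadotropin priming. All groups were first held for 24 h in exosome-free medium and then cultured for 48 h, the FAC group with 100 μM ferric citrate, the DFO group with 100 μM ferric citrate and 100 μM deferoxamine mesylate, and the untreated CON group with neither. A group that received deferoxamine without ferric citrate is not among the 4 groups of the labels, so an effect of the chelator on the iron and an effect of the chelator itself cannot be told apart. The remaining 3 libraries, of ferric citrate with vitamin E (VE), were not compared here. Like CON, they entered the count filter, the scaling between libraries and the estimate of the spread between replicates. CON levels are given beside the others without a test.

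MicroRNAs are short RNAs that guide Argonaute proteins to partly complementary sites in messenger RNAs, mostly lowering their translation and stability. The bases near the 5′ end, the seed, carry most of this pairing, and miRNAs with the same seed form a family. Each is cut from one arm (5p or 3p) of a hairpin precursor, and usually one arm is kept and the other is degraded. Granulosa cells surround the oocyte and secrete steroids, and their vesicles carry miRNAs into the follicular fluid. Deferoxamine is a siderophore that binds ferric iron and keeps it from taking part in the reactions that oxidise lipids in ferroptosis.

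The mature sequences of the miRNAs on which the comparison turned are given first, with the seed (bases 2 to 8, counted from 1 at the 5′ end) in capitals. They were taken from RefSeq (GRCm38.p6), which held a mature sequence for 549 of the 637 entries. The let-7 guide arms are shown because 4 of them were higher with deferoxamine and because their near-identical bodies could let reads be shared between entries.
let-7b-5p: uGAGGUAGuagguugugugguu
let-7c-5p: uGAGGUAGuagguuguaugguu
let-7a-5p: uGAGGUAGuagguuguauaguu
let-7e-5p: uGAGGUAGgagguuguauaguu
let-7f-5p: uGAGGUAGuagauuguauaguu
let-7d-5p: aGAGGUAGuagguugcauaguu
let-7g-5p: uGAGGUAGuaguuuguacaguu
let-7i-5p: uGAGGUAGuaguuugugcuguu
miR-98-5p: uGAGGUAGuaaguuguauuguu

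The next sets hold the other 3 miRNAs that passed the adjusted test, each beside relatives that did not, so that a seed shared by a miRNA that differed and one that did not can be seen.
miR-148a-3p: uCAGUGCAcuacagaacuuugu
miR-148b-3p: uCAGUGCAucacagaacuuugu
miR-152-3p: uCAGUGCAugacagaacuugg
miR-125a-5p: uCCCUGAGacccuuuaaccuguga
miR-125b-5p: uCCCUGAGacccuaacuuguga
miR-99a-5p: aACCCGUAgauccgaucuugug
miR-99b-5p: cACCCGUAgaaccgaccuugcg
miR-100-5p: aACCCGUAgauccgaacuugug

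The last set comes from the miR-23, miR-27 and miR-24 clusters and from the miR-204 hairpin, where the arms of a hairpin or the members of a cluster moved apart.
miR-23a-3p: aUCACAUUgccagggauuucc
miR-23b-5p: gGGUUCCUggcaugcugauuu
miR-24-3p: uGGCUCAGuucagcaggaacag
miR-27b-3p: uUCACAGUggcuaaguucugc
miR-204-5p: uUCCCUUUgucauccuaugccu
miR-204-3p: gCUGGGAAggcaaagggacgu

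In GRCm38.p6, let-7b-5p lies at chr15:85707325-85707346 on the plus strand, in an exon of the long noncoding RNA gene Lncppara in the GENCODE M21 annotation. Mature let-7c-5p is encoded by a pair of genes, in another exon of that gene at chr15:85706616-85706637 (plus strand) and in an intron of Mir99ahg at chr16:77599672-77599693 (plus strand). The same Mir99ahg intron host holds miR-99a-5p at chr16:77598940-77598961 (plus strand). Within the gene Spaca6, let-7e-5p lies in an intron at chr17:17830366-17830387 and miR-125a-5p overlaps an exon at chr17:17830817-17830840, both on the plus strand. The miRNA miR-148a-3p is at chr6:51269829-51269850 on the minus strand, outside any annotated host gene on that strand. The deposited counts carry no coordinates.

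The depth differed between the groups. Library totals lay between 22631206 and 24845945 reads over the 12 libraries, but miRNA counts were 7565362, 5219420 and 5410588 in FAC replicates 1, 2 and 3 and 3043884, 4877426 and 1373519 in the DFO replicates. As a percentage of the library total, miRNA counts were 30.4, 21.6 and 22.1 in FAC and 12.5, 19.9 and 5.53 in DFO. Each DFO library was below each FAC library, by a mean of 12.1 percentage points (two-sided exact permutation P = 0.1, which is the minimum for 3 against 3, or 0.3 after Benjamini-Hochberg adjustment over the 3 whole-library measures tested). The share in CON was 5, 2 and 2.83. The 95% Wilson intervals of these shares, such as 5.52 to 5.54 percent in DFO replicate 3, cover counting error only. The 10 most abundant entries held 77.5, 74.4 and 81.3 percent of the miRNA counts in FAC and 81.7, 76.5 and 81.1 percent in DFO (exact permutation P = 0.6, adjusted 0.6). At 10 CPM (the count scaled to 1000000 miRNA counts) or more, 239.7 ± 23.6 entries were found in FAC and 223.7 ± 32.3 in DFO (SD) (exact permutation P = 0.6, adjusted 0.6). For both of these measures the groups overlapped.

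**Figure D1:**
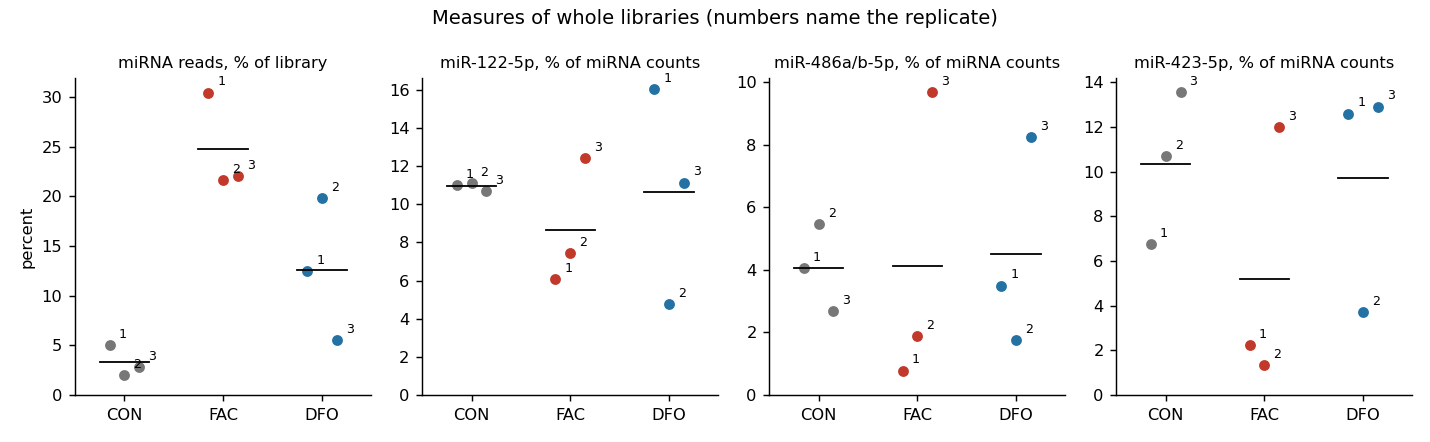
Measures of whole libraries in percent (vertical axes) for CON, FAC and DFO (horizontal axis); each point is 1 library, the number beside it is its replicate and the line is the mean of 3. The miRNA share is lower in the 3 DFO than in the 3 FAC libraries, whereas miR-122-5p, miR-486a/b-5p and miR-423-5p split the libraries within both groups.

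Values below are normalised CPM, the counts scaled to miRNA totals after edgeR's TMM scaling, which sets libraries to the bulk of their miRNAs. Differences are log2 fold changes of DFO minus FAC from edgeR's quasi-likelihood test, and an entry was past the threshold when it differed by 1.5-fold or more at an unadjusted P under 0.05, as the study required. Labels do not say whether replicates came from separate animals or cultures, so P values measure the spread between these libraries. That spread was wide, with a common biological coefficient of variation of 1.57.

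Of 547 entries tested (10 or more counts in the 12 libraries together), 67 lay past the threshold, 12.2% of those tested. Among the 547 were 16 entries without a count in any FAC or DFO library, which passed the filter through CON or VE. Of the 67, 41 (7.5% of those tested) were higher and 26 (4.75%) were lower with deferoxamine. After Benjamini-Hochberg adjustment over all 547, 5 entries remained at an adjusted P under 0.05 (0.914%), with let-7b-5p, let-7c-5p and miR-125a-5p higher and miR-148a-3p and miR-99a-5p lower in DFO. The 3 libraries of one group did not overlap those of the other for 91 entries (16.6%), 36 of them higher and 55 lower in DFO, and for 47 of the 67. With one library left out at a time, 26 of the 67 were past the threshold in all 6 fits, 16 higher and 10 lower in DFO. Without FAC replicate 1, 39 entries passed. The number at an adjusted P under 0.05 was 1 without FAC replicate 1, 3 without FAC replicate 2, 26 without FAC replicate 3, 2 without DFO replicate 1, 2 without DFO replicate 2 and 8 without DFO replicate 3. Of the 41 that were higher, 15 had a mean of 1000 CPM or more in DFO, and of the 26 that were lower, 10 had such a mean in FAC.

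The direction of the split, and which entries passed, depended on what a count was set against. With counts scaled to all reads of a library in place of its miRNA counts, 8 entries were higher and 67 lower in DFO, and the median log2 fold change of all tested entries moved by -1.22. With total miRNA counts and no composition factor the split was 37 to 30, with DESeq2's size factors in the same edgeR test 49 to 22, and in DESeq2 itself 40 to 45. The median log2 fold change was -0.66 over the 547 entries and -0.01 over the 139 with at least 10 counts in each of the 6 libraries. Each fold change that follows thus sets one miRNA against the rest of its library, and in limma on log2(RPM + 1), where reads are set against the library total, 12 entries were higher and 112 lower in DFO. Of the 5 entries at an adjusted P under 0.05, 2 (miR-148a-3p and miR-99a-5p) were still so with counts scaled to all library reads and in limma on log2(RPM + 1), and 0 in limma on log2(RPM + 0.1), and the 3 calls of higher levels in DFO were lost in each of these.

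**Figure D2:**
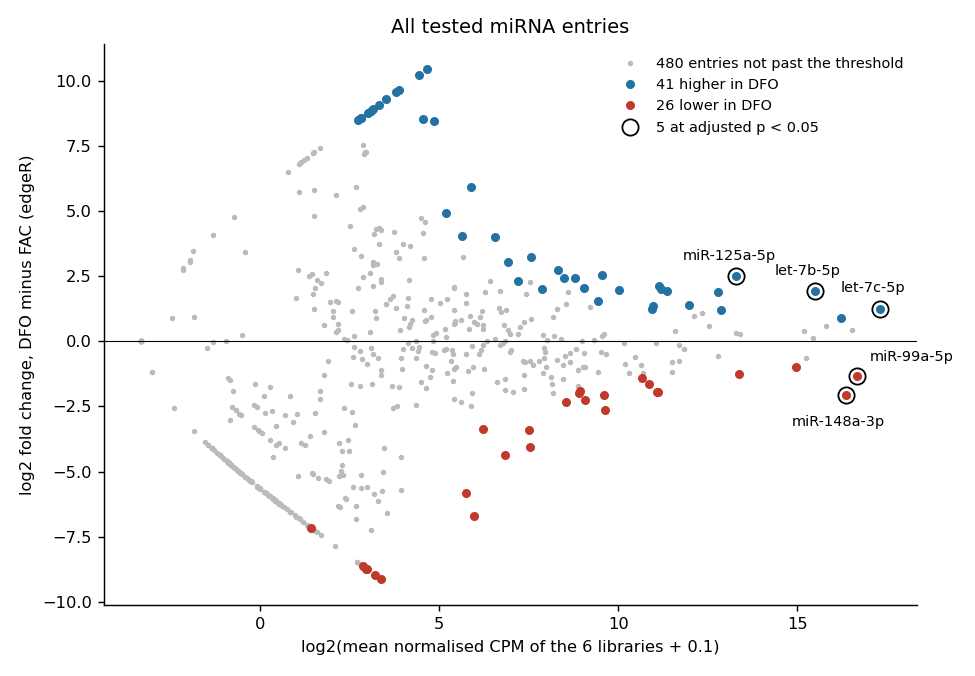
Log2 fold change, DFO minus FAC, of the 547 tested entries (vertical axis) against log2 of the mean normalised CPM over the 6 libraries plus 0.1 (horizontal axis); blue and red points are the 41 entries higher and the 26 lower in DFO past the threshold, and circles mark the 5 at an adjusted P under 0.05. The circled entries lie at the abundant end, and the fold changes of rare entries spread widely in both directions.

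The let-7 family restrains proliferation and the pluripotent state by repressing targets such as Lin28 and Ras, and 2 of its members, let-7b-5p and let-7c-5p, were higher in DFO at an adjusted P under 0.05. For let-7b-5p, the normalised level was 9890.1, 14283 and 33302 CPM in FAC replicates 1, 2 and 3 and 100597, 65866 and 52755 CPM in the DFO replicates. Every DFO library was above every FAC library, and the CON libraries, at 46520, 66864 and 83378 CPM, covered much of the DFO range. The means were 19158 ± 12444 CPM in FAC and 73073 ± 24722 CPM in DFO (SD, n = 3 each; edgeR log2 fold change 1.93, standard error 0.41, adjusted P = 0.000724). With one library left out, the log2 fold change of let-7b-5p was highest without FAC replicate 3, and the 6 values lay between 1.62 and 2.69, with an adjusted P of 0.0599 without FAC replicate 1 and 0.0695 without DFO replicate 1 in edgeR.

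The entry with the highest mean over the 6 libraries together, let-7c-5p, was at 74082, 90069 and 121406 CPM in FAC and 241145, 284023 and 157887 CPM in DFO. Again the groups did not overlap, and CON stood at 148688, 219204 and 229383 CPM. The log2 fold change was 1.26 (standard error 0.34, edgeR adjusted P = 0.0271). In edgeR its adjusted P was 0.159 without FAC replicate 1, 0.0828 without FAC replicate 2, 0.159 without DFO replicate 1 and 0.191 without DFO replicate 2. Its direction turned in limma on log2(RPM + 1), where the log2 fold change was -0.049, and the log2 fold change of let-7b-5p fell to 0.78 there (limma adjusted P = 0.445), so that both calls were lost.

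Of the remaining let-7 guide arms, let-7a-5p was at 2714, 2686 and 3495 CPM in FAC and 11843, 14776 and 6517 CPM in DFO, without overlap (edgeR log2 fold change 1.90, standard error 0.55, adjusted P = 0.0531). CON held 4564, 5710.4 and 5293 CPM of it, above FAC and below DFO. For let-7e-5p the values were 641, 608 and 1279.9 CPM in FAC and 5621, 3792 and 1665 CPM in DFO, also without overlap (edgeR log2 fold change 2.13, standard error 0.65, adjusted P = 0.0603). Both were past the threshold with any single library left out, and neither passed the adjusted test. Among all 9 guide arms of the let-7 and miR-98 list, 4 were past the threshold, all higher in DFO (44.4%, beside 7.5% of all tested entries). The higher mean was in DFO for 8 of the 9, beside 211 of all 547. The list's median log2 fold change was 1.16, beside -0.66 over all tested entries. Those not past it were let-7f-5p (log2 fold change 1.08, adjusted P = 0.42), let-7d-5p (log2 fold change 0.94, adjusted P = 0.64), miR-98-5p (log2 fold change 1.16, adjusted P = 0.669), let-7g-5p (log2 fold change 0.05, adjusted P = 1) and let-7i-5p (log2 fold change -0.14, adjusted P = 0.928). With counts set against all library reads, the log2 fold changes of let-7b, let-7c, let-7a and let-7e were 1.04, 0.39, 1.05 and 1.28 in edgeR, none past the threshold, and those of let-7g and let-7i were -1.28 and -1.34.

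The 3p arms of the same hairpins, listed here as passenger arms, gave calls in both directions. In the let-7 and miR-98 lists, guide and passenger stand for the 5p and 3p arms. For let-7d the 3p arm was the more abundant in every CON, FAC and DFO library. The log2 ratio of its 5p to 3p CPM was -3.29, -3.30 and -7.48 in FAC and -4.36, -4.77 and -5.66 in DFO. For let-7c-1-3p, the levels were 175, 219.9 and 258 CPM in FAC and 1.72, 28.5 and 0.751 CPM in DFO, so that each DFO library was lower (edgeR log2 fold change -4.37, standard error 1.58, adjusted P = 0.144). In contrast, let-7d-3p was at 2650.4, 2677 and 8315 CPM in FAC and 11356, 11059 and 8742 CPM in DFO (edgeR log2 fold change 1.19, standard error 0.51, adjusted P = 0.263), but was not past the threshold without FAC replicate 1 or FAC replicate 2 (log2 fold change 0.92 and 1.10, respectively). Without DFO replicate 2 the log2 fold change of let-7c-1-3p was -7.37, and without FAC replicate 3 that of let-7d-3p was 2.03. With counts set against all library reads let-7d-3p was not past the threshold (0.34). Of the 8 tested passenger arms, 1 was higher and 1 was lower past the threshold (12.5% each, beside 7.5% and 4.75% of all tested entries). The lower mean was in DFO for 6 of the 8, beside 320 of all 547. Their median log2 fold change was -4.999, or -1.03 where a group without a count was set to the floor of 3 counts per library. Over all tested entries these medians were -0.66 and -0.08, the latter over the 531 with a count in FAC or DFO.

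**Figure D3:**
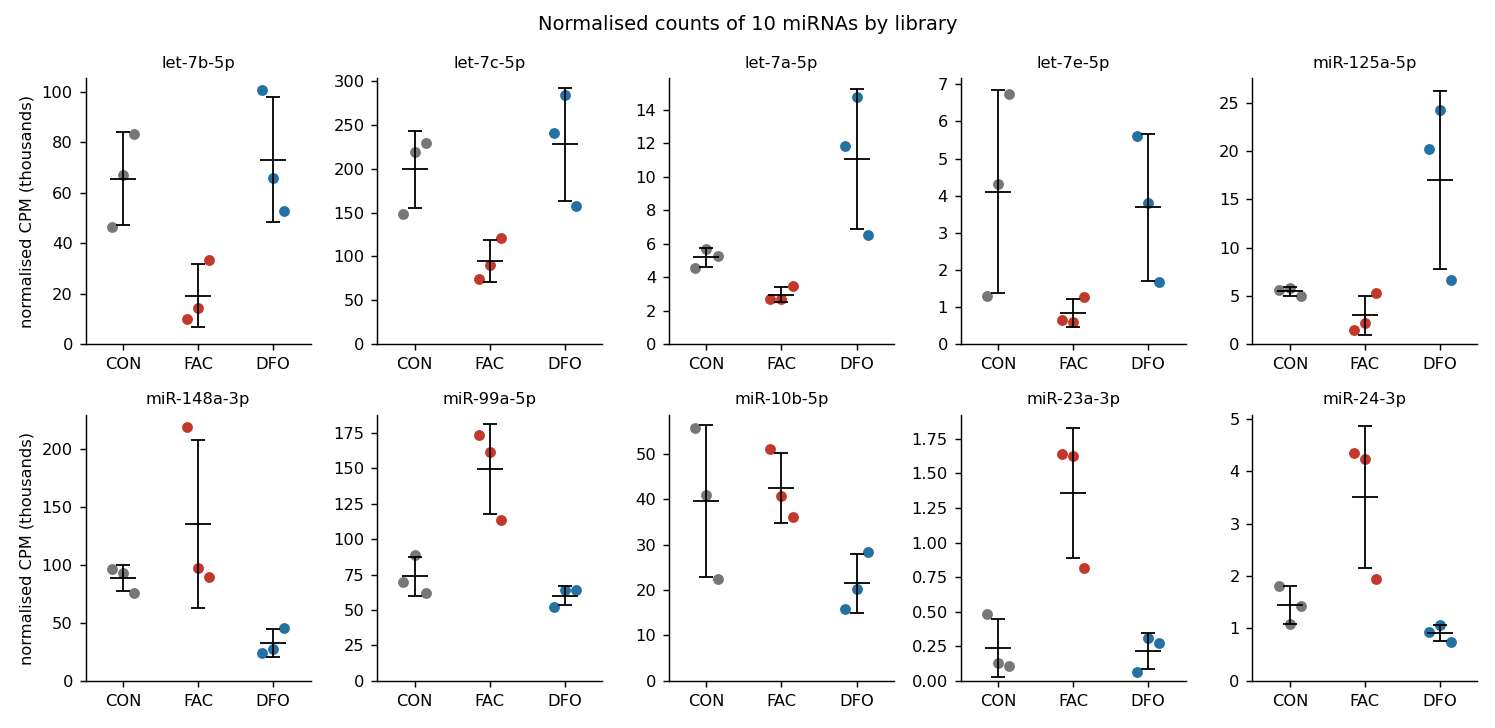
Normalised CPM divided by 1000 (vertical axes, from 0) of 10 miRNAs in CON, FAC and DFO (horizontal axis); points are libraries, bars are the mean ± SD of 3. In all 10 panels the 3 DFO libraries lie on one side of the 3 FAC libraries, above for the 4 let-7 members and miR-125a-5p and below for the other 5. The panels were picked from the named entries, and lack of overlap was one of the grounds for naming, so this separation is not an independent finding. Of all 547 tested entries, 91 (16.6%) did not overlap.

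The miR-10, miR-99, miR-100 and miR-125 family divided. Members of this family derive from ancient clusters shared with let-7, miR-125 being the vertebrate lin-4, which times development, and miR-99 and miR-100 being known to repress mTOR. For miR-125a-5p, the normalised level was 1495, 2241 and 5265 CPM in FAC and 20231, 24262 and 6662 CPM in DFO (edgeR log2 fold change 2.51, standard error 0.54, adjusted P = 0.000724). The groups did not overlap, although FAC replicate 3 and DFO replicate 3 were close, and the CON libraries were at 5578, 5842 and 4981 CPM. In edgeR the adjusted P was 0.0599 without FAC replicate 1 and 0.065 without DFO replicate 2, and without FAC replicate 3 the log2 fold change was 3.30. With counts set against all library reads it was 1.87 (edgeR adjusted P = 0.229), and in limma on log2(RPM + 1) 1.22 (adjusted P = 0.426). Its relative with the same seed, miR-125b-5p, was at 5380.1, 13233 and 10426 CPM in FAC and 14048, 15268 and 6004 CPM in DFO (log2 fold change 0.28, adjusted P = 0.774), and those groups overlapped. Within a library, the log2 ratio of miR-125a-5p to miR-125b-5p counts was -1.85, -2.56 and -0.99 in FAC and 0.53, 0.67 and 0.15 in DFO, a comparison that no scaling of the library can move and that was chosen after the values had been seen.

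In the opposite direction, miR-99a-5p was at 173151, 161331 and 113503 CPM in FAC and 52295, 63750 and 63851 CPM in DFO, without overlap (edgeR log2 fold change -1.32, standard error 0.36, adjusted P = 0.0283). Its level in CON was 69958, 89029 and 62216 CPM. The log2 fold change stayed between -1.46 and -1.16 with one library left out, but the adjusted P in edgeR was 0.128 without FAC replicate 1, 0.268 without FAC replicate 2, 0.189 without DFO replicate 1, 0.0984 without DFO replicate 2 and 0.071 without DFO replicate 3. With DESeq2's size factors in edgeR it was 0.0674. Also lower in DFO was miR-10b-5p, encoded among the Hoxd genes, at 50954, 40620.5 and 35966 CPM in FAC and 15778, 20149 and 28420.4 CPM in DFO (edgeR log2 fold change -0.99, standard error 0.42, adjusted P = 0.248). It was not past the threshold without FAC replicate 1, DFO replicate 1 or DFO replicate 2 (log2 fold change -0.84, -0.81 and -0.94, respectively). The groups did not overlap for miR-100-5p (log2 fold change -1.18, adjusted P = 0.42) and miR-10a-5p (log2 fold change -0.57, adjusted P = 0.492), which were not past the threshold, and overlapped for miR-99b-5p (log2 fold change 0.41, adjusted P = 0.558, past the threshold without FAC replicate 3, where the log2 fold change was 0.95). Of the 7 members tested, 1 was higher and 2 were lower past the threshold (14.3% and 28.6%, beside 7.5% and 4.75% of all tested entries).

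Some of these genes are neighbours of let-7 genes, and the mature miR-99a-5p and let-7c-5p went in opposite directions. The hairpins Mir99a and Mirlet7c-1 lie within 815 bases on chromosome 16 (chr16:77598936-77599750, plus strand), both in an intron of Mir99ahg. The log2 ratio of let-7c-5p to miR-99a-5p counts was -1.22, -0.84 and 0.10 in FAC and 2.21, 2.16 and 1.31 in DFO, and 1.09, 1.30 and 1.88 in CON. Reads of let-7c-5p can also come from Mirlet7c-2 on chromosome 15, so the ratio is not that of 1 locus. The passenger arm of Mirlet7c-1, let-7c-1-3p, was lower in DFO (edgeR log2 fold change -4.37, adjusted P = 0.144), as miR-99a-5p was. In Spaca6 on chromosome 17, where Mirlet7e and Mir125a lie within 528 bases (chr17:17830352-17830879, plus strand) next to miR-99b-5p, the log2 ratio of miR-125a-5p to miR-99b-5p was -3.99, -3.21 and -3.27 in FAC and -0.74, -1.02 and -2.71 in DFO. For let-7e-5p over miR-99b-5p it was -5.21, -5.09 and -5.31 in FAC and -2.59, -3.70 and -4.71 in DFO. The log2 fold changes of let-7e-5p, miR-125a-5p and miR-99b-5p were all positive (2.13, 2.51 and 0.41), that of miR-99b-5p not past the threshold. In each of these 3 pairs the DFO libraries were above the FAC libraries. The pairs were picked after their values were known and were not tested.

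The entry with the smallest P was miR-148a-3p, a miRNA abundant in liver and in secreted vesicles and known to repress DNA methyltransferase 1. It was at 218947, 97062 and 89428 CPM in FAC and 23920, 27825 and 45912 CPM in DFO, so that each DFO library was lower, and at 96687, 92619.8 and 75579 CPM in CON. The means were 135146 ± 72674 CPM and 32552 ± 11733 CPM (SD, n = 3 each), a 4.15-fold difference (edgeR log2 fold change -2.05, standard error 0.38, adjusted P = 3.26e-05). It was the single entry whose adjusted P in edgeR stayed under 0.05 with each of the 6 libraries left out, the highest being 0.0466. In limma on log2(RPM + 0.1) its adjusted P was 0.0744. It was the 1 member of 3 in its family past the threshold (33.3%, beside 12.2% of all tested entries). Its relatives with the same seed were rare beside it. Of these, miR-148b-3p was at 972, 489 and 456 CPM in FAC and 158, 348 and 386 CPM in DFO (log2 fold change -1.10, adjusted P = 0.468), and miR-152-3p at 287, 291 and 120.0 and 209, 109 and 98.3 CPM (log2 fold change -0.74, adjusted P = 0.746). The passenger arm miR-152-5p had 72, 23 and 245 counts in FAC and 0 in each DFO library, at least 16-fold lower against the floor of 3 counts per library, and was not past the threshold without FAC replicate 3, DFO replicate 1, DFO replicate 2 or DFO replicate 3 (log2 fold change -7.27, -9.15, -9.05 and -9.21, respectively).

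The paralogous miR-23, miR-27 and miR-24 clusters, on chromosome 8 (chr8:84208518-84208921) and, for the b members, chromosome 13 (chr13:63300484-63301283), are known from vascular and TGF-beta biology, and 9 of their 11 tested arms had the lower mean with deferoxamine, beside 320 of all 547. For miR-23a-3p the levels were 1640.1, 1623 and 818 CPM in FAC and 67.9, 307 and 274 CPM in DFO (edgeR log2 fold change -2.65, standard error 0.89, adjusted P = 0.114). For miR-24-3p, which both clusters encode, they were 4345, 4235 and 1951 and 924, 1064 and 745 CPM (edgeR log2 fold change -1.95, standard error 0.67, adjusted P = 0.125). The 3p arm miR-23b-3p was at 449.8, 338 and 260.0 CPM in FAC and 2.76, 52.2 and 8.26 CPM in DFO (edgeR log2 fold change -4.04, standard error 1.38, adjusted P = 0.124). These 3 stood apart between the groups, and each was past the threshold with any one library left out. The CON means were nearer to the DFO than to the FAC means in all 3, although single CON libraries varied, for example at 480.0, 126.4 and 110.1 CPM of miR-23a-3p. For miR-27b-3p the levels were 4098, 2783 and 1491 CPM and 787, 890.1 and 1027 CPM (edgeR log2 fold change -1.63, standard error 0.69, adjusted P = 0.248), and it was not past the threshold without FAC replicate 1 or DFO replicate 1 (log2 fold change -1.25 and -1.54, respectively). Without DFO replicate 2 the log2 fold change of miR-23b-3p was -6.00. Of the 11, 4 were lower past the threshold and 1, miR-23b-5p, was higher, 45.5% beside 12.2% of all tested entries. The list's median log2 fold change was -1.96, beside -0.66 over all of them.

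That exception was large. The 5p arm, miR-23b-5p, was at 5.15, 0.534 and 0 CPM in FAC, from 44, 4 and 0 counts, and at 137, 59.9 and 154.6 CPM in DFO (edgeR log2 fold change 5.91, standard error 1.88, adjusted P = 0.0879). Without FAC replicate 1 its log2 fold change was 8.51. Both arms of the miR-23b hairpin thus stood apart between the groups, in opposite directions. The ratio of the arms was tested for 107 hairpins as the log2 ratio of 5p to 3p CPM in limma, and 3 ratios differed at an adjusted P under 0.05 (2.8%), all higher in DFO. For miR-23b the ratio was -6.29, -8.24 and -8.80 in FAC and 5.37, 0.20 and 4.13 in DFO (limma adjusted P = 0.0474), and 2.32, 2.01 and -3.48 in CON.

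In let-7e the ratio was 6.54, 4.77 and 5.21 in FAC, 11.76, 12.67 and 11.48 in DFO and 11.11, 12.85 and 10.82 in CON (difference 6.47, standard error 0.97, limma adjusted P = 0.00369). Here the minor arm let-7e-3p had 54, 163 and 168 counts in FAC and 3, 0 and 0 in DFO, so the DFO ratios rest on the prior count of 2 and on the abundant 5p arm. Its adjusted P stayed under 0.05 in all alternatives in which it could be tested, the highest being 0.0313. The 5p arm of miR-204, which lies in an intron of Trpm3, had no count in any FAC or CON library and was at 49.3, 0 and 80.3 CPM in DFO, at least 95.2-fold higher against the floor of 3 counts per library. The 3p arm was at 214.3, 86.5 and 459 CPM in FAC and 293, 30.5 and 467 CPM in DFO. The ratios with the prior count of 2 were -8.53, -7.22 and -9.62 in FAC and -2.56, -5.73 and -2.53 in DFO (limma adjusted P = 0.0474). Those of FAC and of DFO replicate 2 have no 5p count behind them and are set by the prior count and the 3p level. The adjusted P of the miR-23b and miR-204 ratios was 0.26 in limma without DFO replicate 1. Without FAC replicate 2, FAC replicate 3 or DFO replicate 1, let-7e was the 1 ratio left. The same held with a prior count of 0.5 and with the replicate number as a block. Without FAC replicate 1, let-7e and miR-877 were the 2 left, and without DFO replicate 3, let-7e and miR-505. The miR-23b and miR-204 ratios were thus not at an adjusted P under 0.05 in any of these fits. The next hairpins in order of P were miR-877, miR-505, miR-744, miR-151 and miR-342, none at an adjusted P under 0.05. For miR-877 the ratio was 1.13, 5.62 and 6.94 in FAC and -5.44, 0.46 and -2.28 in DFO (limma adjusted P = 0.084), and it passed without FAC replicate 1 and without DFO replicate 2, as that of miR-505 did without DFO replicate 3.

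**Figure D4:**
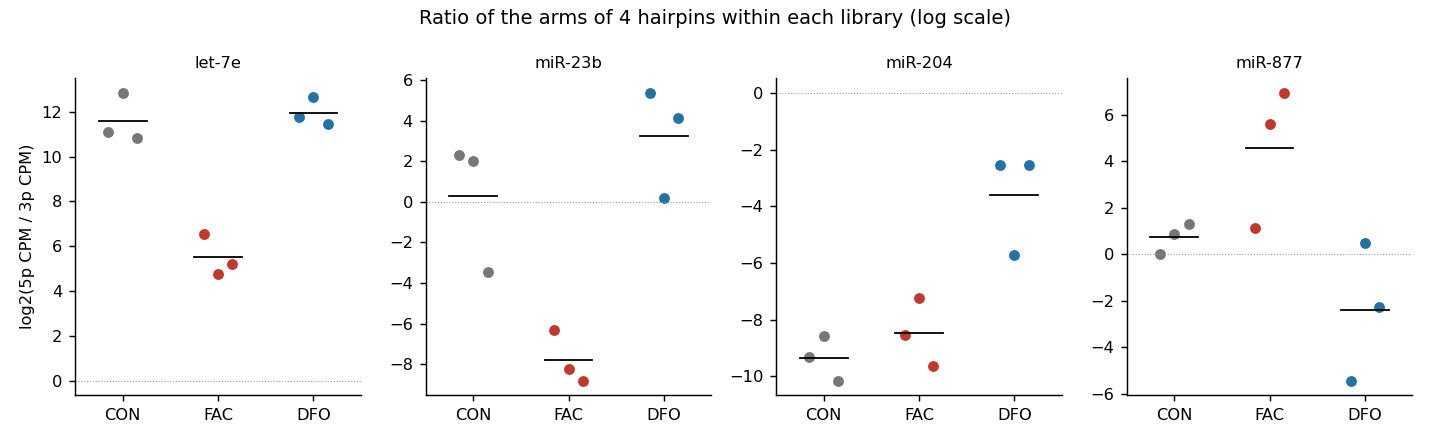
Log2 ratio of 5p to 3p CPM (vertical axes, log scale) of 4 hairpins in CON, FAC and DFO (horizontal axis); points are libraries, lines are means of 3 and dotted lines mark equal arms. The DFO libraries lie above the FAC libraries for let-7e, miR-23b and miR-204, the 3 at an adjusted P under 0.05, and below them for miR-877. Points without a count in one arm rest on the prior count. They include the FAC points and DFO replicate 2 of miR-204, DFO replicates 2 and 3 of let-7e and FAC replicate 3 of miR-23b.

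Since reads of near-identical members can be assigned to either, counts were also summed over entries with the same seed. This was done for the 549 of the 637 entries with a RefSeq mature sequence. Entries without one, miR-122-5p and miR-23b-3p among them, were left out of the summed table. Shares of seeds are given as percent of all miRNA counts. Of 399 seed groups, 58 of them with 2 or more entries, 43 were past the threshold (10.8%) and 8 were at an adjusted P under 0.05 in edgeR (2.01%), 7 higher and 1 lower in DFO. The seed GAGGUAG of let-7 and miR-98 took 11.1, 16.4 and 15 percent of the miRNA counts in FAC and 35.1, 43.9 and 22.1 percent in DFO, with 21.3, 25.8 and 30.7 percent in CON. Its log2 fold change was 1.96 (standard error 0.30, edgeR adjusted P = 3.1e-08). The seed CAGUGCA of miR-148 and miR-152 took 24.9, 14 and 8.19 percent in FAC and 2.32, 3.23 and 4.5 percent in DFO (log2 fold change -1.39, standard error 0.36, edgeR adjusted P = 0.0171). For neither seed did the shares of FAC and DFO overlap.

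The scaling of the summed table bears on these sizes. Its TMM factors raised DFO against FAC beyond the shares. With the total counts of the summed table alone, the log2 fold changes were 1.26 for let-7 and miR-98 and -2.11 for miR-148 and miR-152 (edgeR adjusted P = 9.46e-05 and 3.57e-09). The same change moved the median over all seed groups from -0.15 to -0.84 and the split of those past the threshold from 37 higher and 6 lower to 28 and 19. Those 2 groups were then the only ones at an adjusted P under 0.05. They were also the 2 left without FAC replicate 1, without FAC replicate 2 and without DFO replicate 1, whereas 3 groups were left without DFO replicate 2 and 20 without FAC replicate 3. In edgeR on the 6 libraries alone their adjusted P was 0.056 and 0.07, and with counts set against all library reads let-7 and miR-98 had a log2 fold change of 0.48 (adjusted P = 0.585).

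The third seed, CCCUGAG of miR-125 and miR-351, took 0.883, 2.38 and 1.56 percent in FAC and 3.3, 4.66 and 1.4 percent in DFO, and these overlapped (log2 fold change 1.74, edgeR adjusted P = 0.0171). With total counts its adjusted P was 0.224. The other 5, all higher in DFO, were the seeds of miR-674-3p, of miR-204-5p and miR-211-5p, of miR-125b-1-3p, of miR-23b-5p and of miR-423-5p, with edgeR adjusted P of 0.025 for each. Of the seeds not past the threshold, ACCCGUA of miR-99 and miR-100 took 22.6, 26.7 and 15.4 percent of the counts in FAC and 8.32, 13.1 and 10.7 percent in DFO, which did not overlap either (log2 fold change -0.21, edgeR adjusted P = 0.73). That log2 fold change holds the TMM factors of the summed table, which raised DFO against FAC beyond these shares.

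**Figure D5:**
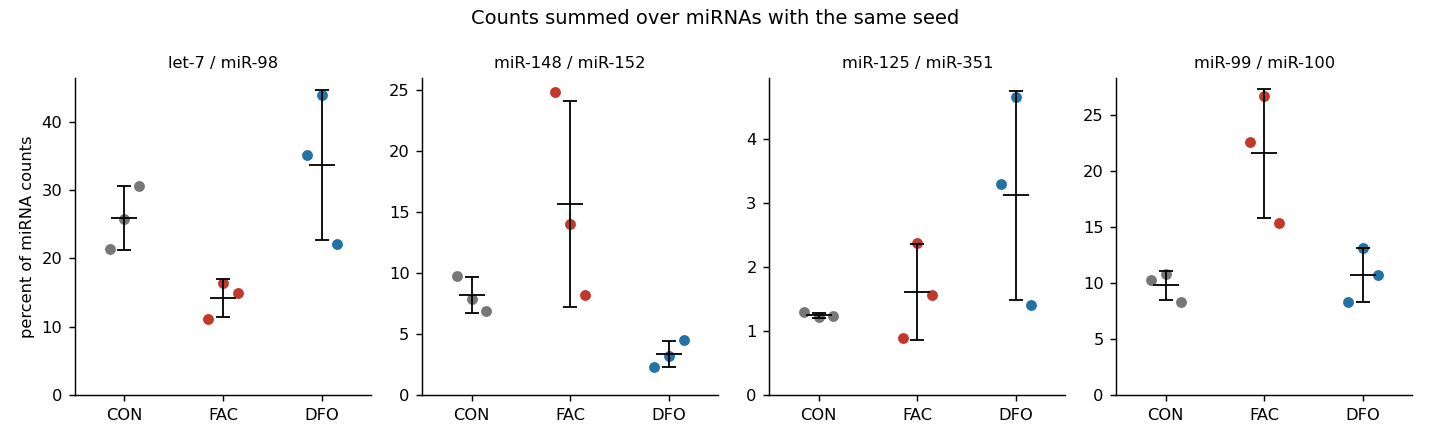
Percent of a library's miRNA counts (vertical axes, from 0) summed over miRNAs with 1 seed in CON, FAC and DFO (horizontal axis); points are libraries and bars are the mean ± SD of 3. The let-7 and miR-98 group lies higher and the miR-148 and miR-152 and miR-99 and miR-100 groups lie lower in DFO than in FAC, whereas the miR-125 and miR-351 group overlaps.

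Among the remaining entries higher in DFO whose libraries did not overlap, 2 were abundant arms of further hairpins. One was miR-125b-1-3p, at 445, 154.2 and 2196 CPM in FAC and 3512, 3291 and 4429 CPM in DFO (edgeR log2 fold change 2.01, standard error 0.64, adjusted P = 0.0879), and the other miR-674-3p, at 641, 329.6 and 2314 and 4516, 4922 and 3145 CPM (edgeR log2 fold change 1.94, standard error 0.62, adjusted P = 0.0879). In both, FAC replicate 3 was several-fold above FAC replicates 1 and 2. The FAC libraries agreed more closely for miR-669c-5p, of the rodent Sfmbt2 cluster, at 249, 159.7 and 242 CPM in FAC and 1317, 1240.3 and 1286 CPM in DFO (log2 fold change 2.56, adjusted P = 0.136), and for miR-744-5p, at 391, 306 and 573 and 1367, 2301 and 1326 CPM (log2 fold change 1.98, adjusted P = 0.182). Less abundant were miR-130b-5p (log2 fold change 3.24, adjusted P = 0.144) and miR-342-5p (log2 fold change 4.01, adjusted P = 0.181). These 6 were past the threshold in each fit with one library left out, but the size moved. Without FAC replicate 3 the log2 fold change was 3.67 for miR-125b-1-3p, 3.19 for miR-674-3p and 4.94 for miR-130b-5p, which was at 2.63 without DFO replicate 3, and that of miR-342-5p was 5.70 without FAC replicate 2. None was at an adjusted P under 0.05 with all libraries. With counts set against all library reads none of the 6 was past the threshold, miR-125b-1-3p being at 1.13, and in limma on log2(RPM + 1) 4 of them (miR-125b-1-3p, miR-674-3p, miR-669c-5p and miR-744-5p) were not.

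Among those lower in DFO, miR-652-3p was at 185, 147 and 40.4 CPM in FAC and 2.41, 0.897 and 0 CPM in DFO (edgeR log2 fold change -6.72, standard error 2.21, adjusted P = 0.0988), and miR-181a-5p, known for setting the sensitivity of T cell receptors, at 530.4, 1109.8 and 1045 and 123.7, 133.6 and 302.5 CPM (edgeR log2 fold change -2.26, standard error 0.88, adjusted P = 0.189). Both were past the threshold with any library left out, miR-652-3p at -7.79 without DFO replicate 1. From the miR-106b, miR-93 and miR-25 cluster in the Mcm7 gene, miR-25-3p was at 17284, 13163 and 14645 CPM in FAC and 3559.9, 5370.1 and 9882 CPM in DFO (edgeR log2 fold change -1.26, adjusted P = 0.192). It was not past the threshold without DFO replicate 1 (log2 fold change -0.98). In its cluster it was the 1 member of 6 past the threshold (16.7%, beside 12.2% of all tested entries). For miR-30a-3p the levels were 5736, 2909 and 1596 CPM and 522, 1190.1 and 962 CPM (edgeR log2 fold change -1.94, adjusted P = 0.133). It was not past the threshold without FAC replicate 1 (log2 fold change -1.34), while 0 of the 5 tested 5p arms of the miR-30 family were past it. The arm miR-1966-5p had 55, 26 and 27 counts in FAC and 0 in DFO, at least 4.03-fold lower. Past the threshold in all 6 such fits, but with overlapping groups, miR-1843b-5p was at 113, 204.98 and 0.406 and 4.82, 0.538 and 0 CPM (log2 fold change -5.83, adjusted P = 0.0603). Its log2 fold change was -4.66 without FAC replicate 2 and -8.14 without DFO replicate 1.

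The cluster of miR-322, miR-503 and miR-351 on the X chromosome (Mir503 and Mir322 at chrX:53053984-53054349, minus strand) is known to restrain the cell cycle. Of its 9 tested arms, 3 were lower in DFO past the threshold (33.3%, beside 4.75% of all tested entries) and none was higher. The levels of miR-503-3p were 413, 495.2 and 82.1 CPM in FAC and 6.2, 18.8 and 69.8 CPM in DFO (log2 fold change -3.39, adjusted P = 0.192), not past the threshold without DFO replicate 1 (log2 fold change -2.90). Those of miR-503-5p were 196, 166 and 44.3 and 3.45, 35.7 and 0 CPM (log2 fold change -3.36, adjusted P = 0.273), and those of miR-322-3p 793, 967 and 530.1 and 102, 161 and 348 CPM (log2 fold change -1.91, adjusted P = 0.382). All 3 stood apart between the groups, but miR-503-5p was not past the threshold without FAC replicate 1, FAC replicate 2, DFO replicate 1 or DFO replicate 3 (log2 fold change -2.99, -3.07, -2.91 and -2.79, respectively), and miR-322-3p was not past the threshold without FAC replicate 1, FAC replicate 2, DFO replicate 1 or DFO replicate 2 (log2 fold change -1.88, -1.71, -1.59 and -1.77, respectively). Without DFO replicate 3 the log2 fold changes of miR-503-3p and miR-322-3p were -4.71 and -2.54, without FAC replicate 3 that of miR-503-3p was -4.01, and without DFO replicate 2 that of miR-503-5p was -6.18. The abundant miR-351-5p was at 949, 1121 and 1415 CPM in FAC and 319.7, 1209 and 1783 CPM in DFO (log2 fold change -0.07, adjusted P = 0.987). The list's median log2 fold change was -1.91, or -0.50 with arms at 0 in a group set to their bound, beside -0.66 and -0.08 over all tested entries.

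The broader lists are given beside the 12.2% of all tested entries past the threshold. Of 30 tested miRNAs linked to granulosa cells and gonadotropins, 1 was higher and 4 were lower (16.7%), with miR-22-3p at 1226, 1723 and 805 CPM in FAC and 267, 252 and 391.8 CPM in DFO (log2 fold change -2.04, adjusted P = 0.189), not past the threshold without FAC replicate 2 (log2 fold change -1.67). Of 21 linked to iron, hypoxia and erythroid cells, 1 was higher and 3 were lower (19%). Among these, miR-221-3p, a repressor of the KIT receptor, was at 755, 879 and 224.2 CPM in FAC and 17.9, 17.8 and 336.998 CPM in DFO (log2 fold change -2.32, adjusted P = 0.317). The groups overlapped through DFO replicate 3, and miR-221-3p was not past the threshold without FAC replicate 1, FAC replicate 2, DFO replicate 1 or DFO replicate 2 (log2 fold change -2.15, -2.15, -1.81 and -1.80, respectively). Its log2 fold change was -2.95 without FAC replicate 3 and -5.12 without DFO replicate 3. Of 25 linked to oxidative stress, p53 and inflammation, 1 was higher and 1 was lower (8%). The p53 target miR-34b-3p was the higher one, at 256, 281 and 78.2 CPM in FAC and 882, 897 and 739 CPM in DFO (log2 fold change 2.03, adjusted P = 0.331), and was not past the threshold without FAC replicate 3, DFO replicate 1 or DFO replicate 2 (log2 fold change 1.70 to 2.44 over the 6 fits), nor with counts set against all library reads (0.87). In the miR-26 and miR-29 families 1 of 8 was lower, miR-29a-3p (log2 fold change -1.99, adjusted P = 0.351), a repressor of collagens, which was not past the threshold without FAC replicate 2, DFO replicate 1, DFO replicate 2 or DFO replicate 3 (log2 fold change -1.48, -2.03, -2.15 and -1.81, respectively). In the miR-181 family it was 1 of 4, and in the miR-221 and miR-222 cluster 1 of 4. In the miR-17 to miR-92a clusters, the miR-15 and miR-16 family and the miR-30 5p arms it was none of 7, 3 and 5.

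In the imprinted Dlk1-Dio3 cluster, 3 of 36 tested entries were higher and none was lower past the threshold, with a median log2 fold change of -0.29. The share that was higher, 8.33%, was near the 7.5% of all tested entries. The 3 were miR-485-5p, at 46.8, 47 and 188 CPM in FAC and 441, 206.4 and 472 CPM in DFO (log2 fold change 1.99, adjusted P = 0.395), miR-543-3p (log2 fold change 2.33, adjusted P = 0.382) and miR-323-5p. The last had no count in FAC and 0, 84 and 90 in DFO. None of the 3 was past the threshold without FAC replicate 1, without FAC replicate 2 or without DFO replicate 3, and miR-485-5p was not past it without DFO replicate 1 either. Without FAC replicate 1 the log2 fold changes were 1.66 for miR-485-5p and 1.90 for miR-543-3p, and they were 3.02 and 4.13, respectively, without FAC replicate 3. That of miR-543-3p was 1.47 without DFO replicate 3, and with counts set against all library reads none of the 3 was past the threshold. Among the 14 reference miRNAs of vesicles, 1 was past the threshold (7.14%, beside 12.2% of all tested entries). That was miR-423-5p, at 19856, 9418 and 131943 CPM in FAC and 132078, 32324 and 133123 CPM in DFO (edgeR log2 fold change 0.88, adjusted P = 0.196). Its groups overlapped, and its direction turned to -0.26 with counts set against all library reads. It was not past the threshold without FAC replicate 1, FAC replicate 2, DFO replicate 1 or DFO replicate 3 (log2 fold change 0.49, 0.55, 0.62 and 0.61, respectively), and without FAC replicate 3 the log2 fold change was 2.81. Of the 14 miRNAs that the study names, 4 were higher and 6 were lower, but these were chosen on the same libraries and are no independent evidence of direction.

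A part of the calls came from rare entries seen in few libraries. Of the 41 entries higher in DFO, 12 had no count in any FAC library, and 9 had over 90% of their DFO level in 1 library. Of the 26 lower, 6 had no count in DFO and 2 had over 90% of their FAC level in 1 library. Over all tested entries, 217 of 547 had over 90% of the higher group's level in 1 library. Counts for the single-library cases were moderate, such as 252 counts of miR-7658-3p in DFO replicate 1 and 79 of miR-7046-5p in DFO replicate 3, both named here after their values were seen. For miR-9-5p, a neuronal miRNA, the counts were 0, 13 and 198 in DFO and 0 in FAC and CON, at least 111-fold higher, and it was not past the threshold without DFO replicate 3 (log2 fold change 5.14). Of the 180 tested miRNAs numbered above 1000, 14 were higher (7.78%, near the 7.5% of all tested entries) and 2 were lower (1.11%, below 4.75%) past the threshold. One of the higher was miR-6900-3p, at 0.234, 0.134 and 0 CPM in FAC and 45.5, 52.2 and 75.8 CPM in DFO (log2 fold change 8.47, adjusted P = 0.189).

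Markers of other sources were measured beside these results. The liver and serum miRNA miR-122-5p took 6.09, 7.45 and 12.4 percent of miRNA counts in FAC and 16, 4.77 and 11.1 percent in DFO, and the joint erythroid entry of miR-486a-5p and miR-486b-5p took 0.779, 1.88 and 9.68 and 3.5, 1.76 and 8.26 percent. Both were high in FAC replicate 3 and DFO replicate 3 and low in FAC replicates 1 and 2 and DFO replicate 2, so they did not divide the libraries by treatment. Neither was past the threshold (edgeR log2 fold change 0.42 for miR-122-5p and 0.12 for the joint entry, adjusted P = 0.462 and 0.897), but without FAC replicate 3 both were, at 1.12 and 2.12, and miR-122-5p also without DFO replicate 2, at 0.81. The summed erythroid list was 7423 to 108676 CPM in FAC and 15727 to 87597 CPM in DFO, and the liver and serum list 51894 to 136452 and 41724 to 168241 CPM. The summed list of granulosa and Sertoli cell miRNAs, all 8 tested, was 2318 to 4649 CPM in FAC and 1274 to 2087 CPM in DFO. In this list 1 member, miR-22-3p, was lower past the threshold (12.5%, beside 4.75% of all tested entries). Its gonadal members were nearly absent, since miR-202-5p had counts in FAC replicate 1 alone of the 6 libraries and miR-202-3p in FAC replicate 2 and DFO replicate 1, so the cell type rests on the labels. The oocyte and pluripotent cell list was at 234 to 326 CPM in FAC and 65.3 to 85.5 CPM in DFO, with 0 of 5 tested members past the threshold. The fibroblast, theca and smooth muscle list, mostly miR-143-3p, was at 37447 to 66855 and 24033 to 44198 CPM, with 0 of 8. Striated muscle markers were at 147.6 to 202.3 and 359.5 to 869 CPM, epithelial markers at 36.8 to 111 and 11.4 to 38.3 CPM with miR-141-3p at 0, leukocyte markers at 224.4 to 465 and 171 to 483 CPM with miR-142a-3p at 0, endothelial miR-126a-3p at 7.88 to 43.1 and 0.345 to 59.3 CPM, and neuronal and endocrine markers at 1314 to 2534 and 722 to 1274 CPM. Apart from miR-22-3p and the neuronal miR-9-5p, no member of these marker lists was past the threshold. The granulosa, oocyte, striated muscle and neuronal sums did not overlap between the groups, and their part in the results was not tested. A change in the number of vesicles from a cell type and a change in the miRNA content of each vesicle cannot be told apart in such bulk libraries.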

How the data were processed

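Small RNA of 12 exosome libraries was sequenced by the authors on an Illumina HiSeq instrument (reads of 15 to 41 bp), and for each library a deposited table gives counts per miRNA and the same values as RPM (per 1000000 reads). The deposited counts are raw counts, and the deposited RPM values are relative to the library totals obtained here as count divided by RPM. The submitters' processing notes name genome build mm9. The aligner, the miRNA database, the handling of reads that match several miRNAs and the use of strand are not given in the sources used here. Entries join 2 miRNAs in 5 cases.

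The 12 libraries were fitted together in edgeR 4.0.16 (R 4.3.3) by the quasi-likelihood test with TMM factors, on the 547 entries with at least 10 counts in all, and DFO was contrasted with FAC. P values, adjusted or not, are from this model across all entries unless another test is named, and standard errors are the absolute log2 fold change divided by the square root of F. Seed groups were counts summed over entries with a RefSeq mature sequence and the same bases 2 to 8. Arm ratios were log2 CPM (prior count 2) of 5p minus 3p, tested in limma 3.58.1. Whole-library measures were tested by exact permutation (SciPy 1.17.1). Scripts were tested on simulated data. No 2 of the 15 pairs of the 6 libraries were repeats of one library (smallest chi-square per degree of freedom 436.4).

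The members and lists were chosen with earlier results of these data known. Named were all entries past the adjusted test, up to 12 per direction with the smallest P among those past the threshold without overlap, the 10 most abundant, up to 4 per list with the smallest P, and the leading seed groups and hairpins, and any other is said to be chosen after its values were seen or stands as the relative of a named one. Lists were the let-7, miR-10 to miR-125, miR-148, miR-23 to miR-24, miR-221, miR-17 to miR-92a, miR-106b, miR-30, miR-26 and miR-29, miR-181, miR-15, miR-322 and Dlk1-Dio3 families or clusters, those linked to granulosa cells, iron or stress, vesicle references, miRNAs numbered above 1000, the study's own, and cell type markers. Alternatives changed the scaling, filter, tool, libraries in the fit, prior count, seed length and replicate block, and left out each library. Replicate numbers were not taken as pairs, since same-numbered DFO and FAC libraries deviated together only with correlations of 0.05, 0.0098 and 0.065.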

Additional observations from a re-analysis of the deposited data

How the results depend on the processing

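The 41 entries higher in DFO became 8 with library read totals, 24 with at least 10 counts in each of the 6 libraries, and 12 and 12 in limma on log2(RPM + 1) and log2(RPM + 0.1), with 23 to 44 when one library was left out. The 26 lower became 67 with library read totals, 45 and 57 in DESeq2 on 12 and on 6 libraries, and 112 and 115 in limma, with 16 to 32 when one library was left out. The 5 at an adjusted P under 0.05 became 12 with RLE factors, 15 with library read totals, 43 and 60 in DESeq2 on 12 and on 6 libraries, 10 in edgeR on the 6 libraries, 15 with at least 10 counts in each of the 6, and 29 and 11 in limma with the larger and the smaller pseudocount, with 1 to 26 when one library was left out. Of the 5 themselves, 4 remained with RLE factors, 2 with library read totals, 5 and 4 in DESeq2, 3 in edgeR on the 6, 4 with the count minimum and 2 and 0 in limma. The 8 seed groups became 2 with the total counts of the summed table and 13 with library read totals. They became 2 with seeds of bases 2 to 7, 26 in DESeq2 and 2 without a filter, with 2 to 20 leaving out one library. The 3 arm ratios became 1 with a prior count of 0.5, with 1 to 4 leaving out one library. The difference in entries detected was -83.3 at 1 CPM or more, against -16 at 10 CPM, with a range of -34.7 to -6.17 leaving out one library. For the miRNA share that range was -15.7 to -8.55 points, and for the share of the 10 most abundant 0.344 to 3.78 points. A tally was made for 47 of the named entries, 42 of them past the threshold in the main test. Among their 829 values, 663 kept direction and side of the threshold, 12 gained a call, 20 turned and the others lost the call. Of called entries, let-7c-5p turned to -0.049 in limma with both pseudocounts and miR-423-5p to -0.26 with library read totals. Of entries not called, miR-122-5p (0.42), miR-151-3p (0.59), miR-99b-5p (0.41) and joint miR-486a/b-5p (0.12) turned to -0.80, -0.51, -0.50 and -1.16 with library read totals and to -0.94, -0.63, -0.78 and -0.52 in limma with both pseudocounts. The joint entry was also at -0.0703 in edgeR on the 6 libraries and -0.39, -0.24 and -0.69 without FAC replicate 1, FAC replicate 2 or DFO replicate 3, and miR-122-5p at -0.0455 without DFO replicate 1, their highest values being 2.12 and 1.12 without FAC replicate 3. The causes were not tested.

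With the replicate number as a block (replicate block), 31 entries were higher and 23 lower past the threshold, 3 entries, 13 seed groups and 1 arm ratio were at an adjusted P under 0.05, and the miRNA share differed by -12.1 points (exact sign-flip P = 0.25, the smallest that 3 pairs allow). Entries with few counts were limited by depth, the floor of 3 counts being 0.454 CPM over FAC and 1.27 CPM over DFO.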
